A study of Oryza sativa with 18 samples.

Results

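The type-A response regulators of rice were followed across crown root tips treated with jasmonic acid (JA). The 8 genes are OsRR1 (LOC_Os04g36070), OsRR2 (LOC_Os02g35180), OsRR3 (LOC_Os02g58350), OsRR4 (LOC_Os01g72330), OsRR6 (LOC_Os04g57720), OsRR7 (LOC_Os07g26720), OsRR9 (LOC_Os11g04720) and OsRR10 (LOC_Os12g04500). They were picked out by their MSU7 identifiers, and the first number in an identifier is the chromosome. The choice of these 8 was made with earlier results of these data known. They are 8 of the 64687 genes listed in the deposited counts, and all 8 are among the 30907 genes that reached a sum of 180 counts over the libraries and were tested. RefSeq lists 7 of the 8 names as synonyms on the same chromosome, and the name OsRR3 rests on the identifier alone.

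Cytokinin is read in plants by a phosphorelay. Histidine kinase receptors pass a phosphate to phosphotransfer proteins, which carry it to type-B regulators, transcription factors that switch on the type-A genes among their first targets. The type-A proteins have a receiver domain but no DNA-binding part, and they feed back to dampen the pathway, so that their transcripts are widely read as a gauge of cytokinin signalling. In root tips, cytokinin and its type-A regulators act on the balance between division and differentiation.

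Plants of the cultivar Kitaake came as 3 lines: oscoi1ab, edited in both OsCOI1a and OsCOI1b, oscoi2, edited in OsCOI2, and the wild type (WT). The OsCOI proteins are F-box receptors that bind the active jasmonate together with JAZ repressors. Each line was sampled 6 h after 5 µM JA or after a mock treatment with DMSO. Each library holds crown root tips of about 1 cm from 20 to 24 plants 6 days old, and there were 3 libraries per line and treatment, 18 altogether. Each edited genotype is 1 line, so that the edit and anything else carried by that line cannot be told apart. In tips pooled in this way, fewer cells of a type and less RNA per cell cannot be told apart either.

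Library totals were 99657931 to 113672521 counts. Levels are given as CPM after TMM scaling, that is as counts scaled to a common library size. Gene lengths were not used, so levels are compared within a gene. Where genes are summed or set side by side, CPM gives their part of the counts, without a correction for length. A gene is said to be called when edgeR's quasi-likelihood test gave a false discovery rate (FDR, the Benjamini-Hochberg adjusted p) under 0.01 together with a log2 fold change (log2FC) of 1 or more, up or down, the limits that the study set. Of the edited genes, OsCOI1a was lower in oscoi1ab than in WT plants under mock (log2FC -2.32, FDR 0.00121). OsCOI2 had a log2FC of -0.84 in oscoi2 plants (FDR 0.00438), under the fold limit, and OsCOI1b was at log2FC -0.26 (FDR 0.995) in oscoi1ab plants. A transcript can remain where an edit changes only its reading frame, so these values check the labels in part.

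After JA the type-A genes lay below their mock levels in all 3 lines. In each line, every one of the 8 genes had its 3 JA libraries below its 3 mock libraries. Of all genes tested, 26.5% were ordered in this way in oscoi1ab, 16.7% in oscoi2 and 24.8% in WT plants. The FDR and fold limits were passed by 6 of 8 in oscoi1ab plants (all but OsRR2 and OsRR7), by 3 of 8 in oscoi2 plants (OsRR1, OsRR3 and OsRR4) and by 5 of 8 in WT plants (OsRR1, OsRR3, OsRR4, OsRR9 and OsRR10). Over all genes, 8.15% were called lower after JA in oscoi1ab, 1.47% in oscoi2 and 6.56% in WT plants. The 454 genes behind the oscoi2 share became 193 without JA replicate 2, 283 without JA replicate 1, 262 without mock replicate 1 and 263 without mock replicate 3, and 1, 1, 1 and 2 members were then called in that order. No member was called higher in any line.

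The median log2FC of the 8 genes was -1.57 in oscoi1ab, -1.04 in oscoi2 and -1.23 in WT plants. Over all genes tested the median was -0.03, -0.01 and -0.05 in the same order of lines. OsRR7 was listed at 0 in all 3 JA libraries of oscoi1ab plants. With that gene set at the bound its counts allow, the oscoi1ab median was -1.45. OsRR7 was also at or near 0 after JA in the other lines. Without it, the median of the remaining 7 was -1.56 in oscoi1ab, -0.86 in oscoi2 and -1.19 in WT plants.

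Added over the 8 genes, the level was 45.1 ± 1.36 CPM after JA against 102 ± 9.04 CPM under mock in oscoi1ab plants (SD, n = 3 each). It was 73.2 ± 1.16 CPM after JA and 133 ± 13.5 CPM under mock in oscoi2 plants, and 58.4 ± 2.96 CPM after JA and 103 ± 11.4 CPM under mock in WT plants. After JA the 3 lines stood apart in it, with 44.2 to 46.7 CPM in oscoi1ab, 72.2 to 74.5 CPM in oscoi2 and 55.0 to 60.6 CPM in WT libraries. Under mock the oscoi1ab and WT libraries overlapped, at 92.7 to 111 CPM and 90.3 to 113 CPM, and the oscoi2 libraries lay at 118 to 143 CPM. The sum leans on OsRR2 and OsRR4, at 40.2 and 27.3 CPM on average in WT mock libraries, and is not a trait of each gene. Taken singly after JA, only OsRR2, OsRR4 and OsRR6 had all oscoi1ab libraries below all WT libraries. Only OsRR1, OsRR2, OsRR4 and OsRR10 had all oscoi2 libraries above all WT libraries. An exact permutation of 3 libraries against 3 cannot give a p below 0.1, and no test was run on the sum.

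**Figure D1:**
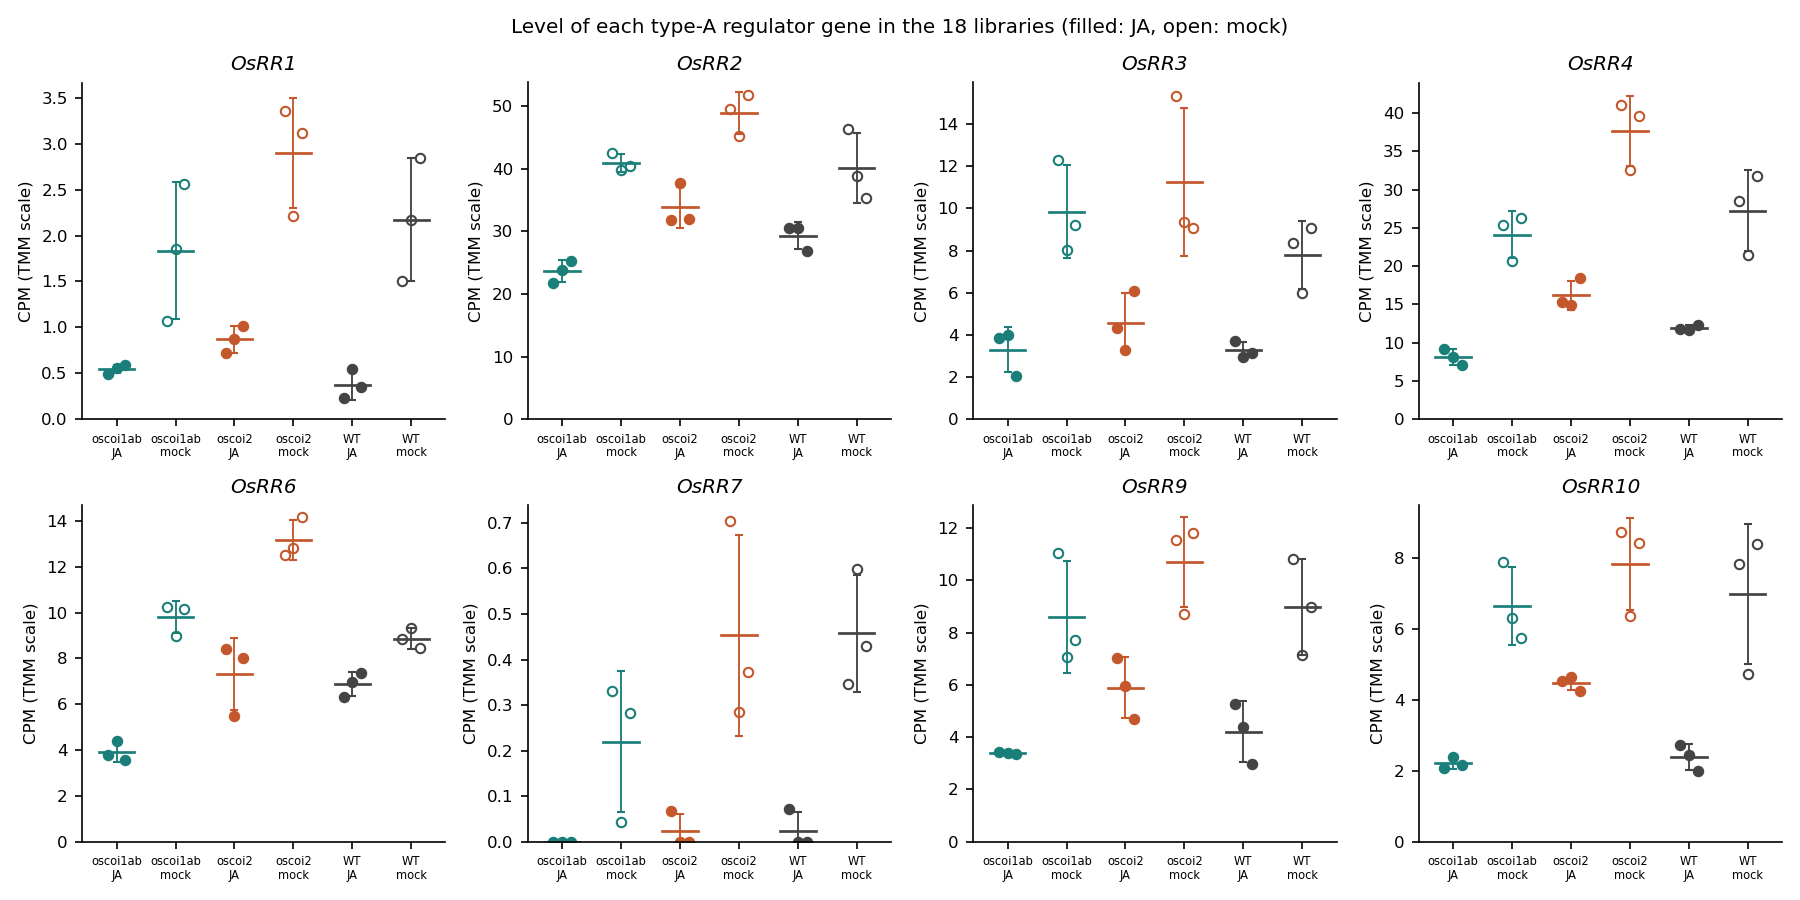
Level of each type-A gene in CPM on the TMM scale (vertical axis, from 0, its own scale per gene) in the 6 groups, with 1 point per library, filled after JA and open under mock, a bar at the mean and an error bar of 1 SD (n = 3). In every panel and every line the 3 JA points lie below the 3 mock points, and the OsRR7 points after JA lie at or near 0.

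OsRR4 fell in all 3 lines. It had 9.19, 8.16 and 7.12 CPM in the JA libraries of oscoi1ab plants, against 25.4, 20.6 and 26.3 CPM under mock. In oscoi2 plants it had 15.3, 14.9 and 18.4 CPM after JA, against 41.0, 32.5 and 39.6 CPM under mock. In WT plants it had 11.8, 11.7 and 12.3 CPM after JA, against 28.5, 21.5 and 31.8 CPM under mock. The treated and mock libraries of each line were far apart, and the lines also separated after JA, with oscoi1ab lowest and oscoi2 highest. The log2FC was -1.56 ± 0.16 (SE, FDR 9.39e-07) in oscoi1ab, -1.22 ± 0.15 (FDR 5.41e-05) in oscoi2 and -1.19 ± 0.15 (FDR 1.67e-05) in WT plants by edgeR's quasi-likelihood test. OsRR4 thus retained 33.8%, 43.0% and 43.8% of its mock level, taken from the fits in the same order of lines. These 3 calls held without any 1 library.

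OsRR1, which is known to be switched on by the factor CRL5 during crown root initiation in rice, had the largest called log2FC of the 8 in each line. It had 0.497, 0.553 and 0.589 CPM after JA in oscoi1ab plants, against 1.07, 1.86 and 2.57 CPM under mock. In oscoi2 plants the values were 0.723, 0.878 and 1.01 CPM after JA and 3.36, 2.22 and 3.12 CPM under mock, and in WT plants 0.227, 0.549 and 0.347 CPM after JA and 1.5, 2.17 and 2.84 CPM under mock. The gap between the treated and the lowest mock library was narrowest in oscoi1ab plants, and in no line did the groups overlap. The log2FC was -1.74 ± 0.39 (SE, FDR 0.00192) in oscoi1ab, -1.73 ± 0.38 (FDR 0.00508) in oscoi2 and -2.53 ± 0.40 (FDR 0.000111) in WT plants. The oscoi2 call was lost in 5 of the 6 omissions of an oscoi2 library, all but that of mock replicate 2 (FDR 0.0115 to 0.0254). The oscoi1ab call was lost without JA replicate 1 (FDR 0.0103) or mock replicate 3 (FDR 0.0131). It was also lost in a fit of only the oscoi1ab libraries (FDR 0.0129). The identifier entered for CRL5, of unchecked name, had no counts in any library, and a link to the OsRR1 values was not tested.

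OsRR3 was likewise called lower in every line. Its JA libraries had 3.85, 4.0 and 2.05 CPM in oscoi1ab plants, against 12.3, 8.04 and 9.19 CPM under mock. In oscoi2 plants it had 4.35, 3.28 and 6.07 CPM after JA and 15.3, 9.37 and 9.05 CPM under mock, and in WT plants 3.69, 2.97 and 3.12 CPM after JA and 8.36, 5.98 and 9.06 CPM under mock. The mock libraries spread widely, with replicate 1 of both edited lines at the top, but stayed above the treated ones. The log2FC was -1.57 ± 0.30 (SE, FDR 0.000503) in oscoi1ab, -1.30 ± 0.29 (FDR 0.00585) in oscoi2 and -1.26 ± 0.29 (FDR 0.00308) in WT plants. The WT call was lost without JA replicate 2 or 3 or mock replicate 1 or 3 (FDR 0.0112 to 0.0145), and the oscoi2 call without JA replicate 1 or 2 or mock replicate 1 (FDR 0.0242 to 0.0398) and in a fit of only the oscoi2 libraries (FDR 0.0223), while log2FC stayed at -1.01 or below.

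OsRR9 and OsRR10 are near-identical copies on chromosomes 11 and 12, so that reads can be split between them and each single value is uncertain. OsRR9 had 3.42, 3.41 and 3.37 CPM after JA in oscoi1ab plants, against 11, 7.07 and 7.70 CPM under mock. Its oscoi2 libraries had 7.02, 5.97 and 4.71 CPM after JA and 11.5, 8.73 and 11.8 CPM under mock, and its WT libraries 5.28, 4.38 and 2.96 CPM after JA and 10.8, 7.16 and 8.96 CPM under mock. The treated and mock libraries did not overlap, and the smallest gap was in oscoi2 plants. The log2FC was -1.34 ± 0.24 (SE, FDR 0.000294) in oscoi1ab, -0.86 ± 0.23 (FDR 0.0180) in oscoi2 and -1.09 ± 0.24 (FDR 0.00163) in WT plants. The WT call was lost without JA replicate 3 (log2FC -0.89, FDR 0.0106), without mock replicate 1 (log2FC -0.94, FDR 0.0103) and in a fit of only the WT libraries (FDR 0.0153).

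OsRR10 had 2.07, 2.38 and 2.17 CPM after JA in oscoi1ab plants, against 7.89, 6.32 and 5.75 CPM under mock. The oscoi2 libraries had 4.55, 4.65 and 4.26 CPM after JA and 8.75, 6.36 and 8.44 CPM under mock, and in WT plants 2.73, 2.44 and 1.99 CPM after JA and 7.85, 4.72 and 8.40 CPM under mock. The treated oscoi2 libraries were the high ones, above every treated library of the other lines, and close to the lowest WT mock library. The log2FC was -1.59 ± 0.22 (SE, FDR 2.65e-05) in oscoi1ab, -0.81 ± 0.21 (FDR 0.0154) in oscoi2 and -1.55 ± 0.22 (FDR 3.78e-05) in WT plants.

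When the counts of both copies were summed before the fit, the log2FC after JA was -1.44 ± 0.21 (SE, FDR 4.57e-05) in oscoi1ab, -0.84 ± 0.21 (FDR 0.0101) in oscoi2 and -1.28 ± 0.21 (FDR 0.000154) in WT plants. The sum was thus called in oscoi1ab and WT plants, and in oscoi2 plants it missed both limits. OsRR10 made up 39.3 ± 1.69% of the sum after JA and 43.9 ± 2.92% under mock in oscoi1ab plants (SD, n = 3 each). Its share was 43.5 ± 4.11% after JA and 42.3 ± 0.76% under mock in oscoi2 plants, and 36.7 ± 3.16% after JA and 43.4 ± 4.47% under mock in WT plants. These shares were not tested.

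OsRR2, which the crown root factor WOX11 is known to repress directly in rice, stayed under the fold limit. It had 21.8, 23.8 and 25.3 CPM after JA in oscoi1ab plants, against 42.5, 39.8 and 40.4 CPM under mock. In oscoi2 plants it had 31.8, 37.7 and 32.0 CPM after JA and 49.6, 45.2 and 51.8 CPM under mock, and in WT plants 30.5, 30.6 and 26.9 CPM after JA and 46.3, 38.8 and 35.3 CPM under mock. The groups were closest in WT plants and farthest apart in oscoi1ab plants, without overlap. The log2FC was -0.79 ± 0.11 (SE, FDR 3.33e-05) in oscoi1ab, -0.53 ± 0.11 (FDR 0.00346) in oscoi2 and -0.45 ± 0.11 (FDR 0.00417) in WT plants. Each passed the FDR limit alone.

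OsRR6, whose overexpression is known to make rice less sensitive to cytokinin, was called in oscoi1ab plants alone. It had 3.77, 4.39 and 3.56 CPM after JA in oscoi1ab plants, against 10.2, 9.0 and 10.2 CPM under mock. The oscoi2 values were 8.39, 5.5 and 8.01 CPM after JA and 12.5, 12.8 and 14.2 CPM under mock, and in WT plants 6.31, 6.97 and 7.37 CPM after JA and 8.82, 9.34 and 8.43 CPM under mock. The treated oscoi1ab libraries were the lowest of all 18, and the WT groups lay close together. The log2FC was -1.33 ± 0.16 (SE, FDR 5.69e-06) in oscoi1ab, a call, -0.85 ± 0.15 (FDR 0.00123) in oscoi2, under the fold limit, and -0.37 ± 0.15 (FDR 0.0747) in WT plants.

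OsRR7 was nearly absent after JA. Its level was 0 in all 3 JA libraries of oscoi1ab plants, against 0.331, 0.0430 and 0.283 CPM under mock. In oscoi2 plants it had 0.0674, 0 and 0 CPM after JA and 0.703, 0.285 and 0.372 CPM under mock, and in WT plants 0.0723, 0 and 0 CPM after JA and 0.345, 0.598 and 0.430 CPM under mock. Low counts in the table cluster at multiples of about 3.66, taken here as the worth of 1 read pair. On that scale the 3 treated libraries together held 0 read pairs in oscoi1ab, 2 in oscoi2 and 2 in WT plants, against 23, 42 and 42 under mock in the same order of lines.

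For OsRR7 this made the treated level 5.31% of mock in oscoi2 plants (95% interval 0.62 to 20.4%) and 5.74% in WT plants (95% interval 0.67 to 22.1%), with exact intervals for counting error only. In oscoi1ab plants it was at least 1.86-fold below the mock mean, set against a floor of 3 read pairs per library, with a counting interval of 0 to 23.0% of mock. Mock replicate 2 of oscoi1ab held only 5 counts, 0.0430 CPM against its floor of 0.0946 CPM. The order of treated and mock libraries for OsRR7 in that line thus rests on a value under the floor. The quasi-likelihood test did not call OsRR7 in any line, and its FDR was 0.0128 for oscoi1ab, 0.0854 for oscoi2 and 0.0553 for WT. In oscoi1ab plants it was called by edgeR's likelihood ratio test (FDR 0.000355), by DESeq2 (FDR 0.000928), and by the quasi-likelihood test without JA replicate 1 of WT (FDR 0.00774) or of oscoi2 plants (FDR 0.00770), which were the only treated libraries that held any OsRR7 counts.

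**Figure D2:**
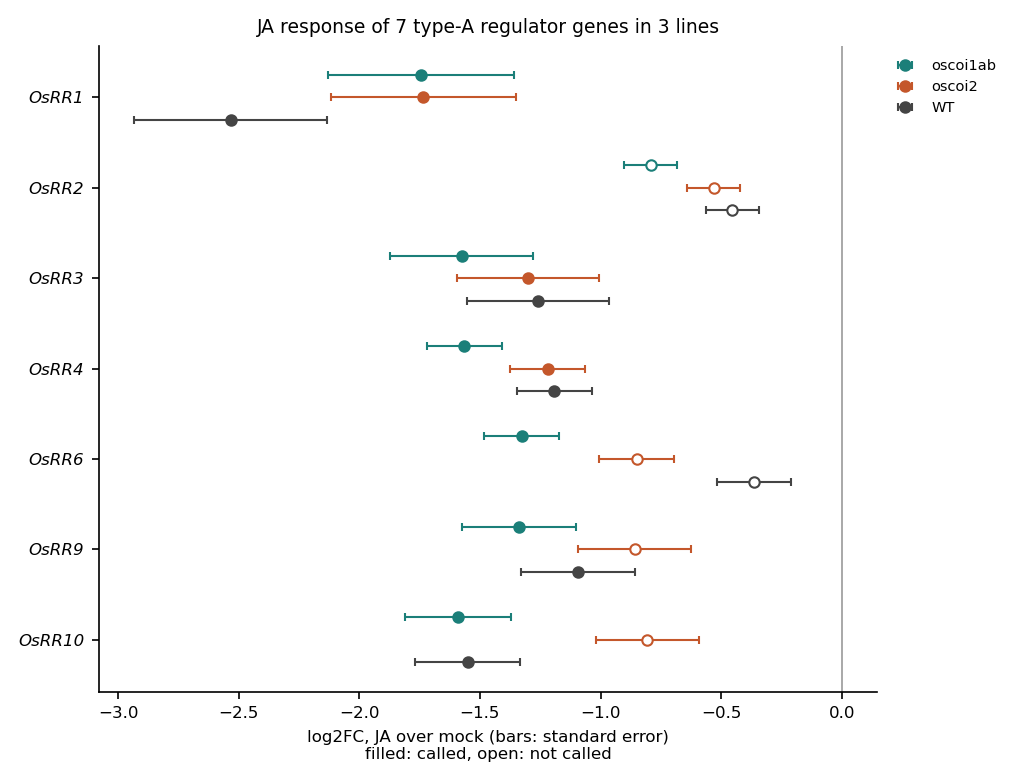
Log2FC of JA over mock (horizontal axis, bars of 1 standard error) for 7 type-A genes, with oscoi1ab above oscoi2 and WT within each gene, filled where called and open where not. All 21 estimates lie below 0, between -2.53 and -0.37, and OsRR7 is left out because of its low counts.

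Across the 18 libraries the Pearson r of log2 CPM between pairs of members was 0.73 to 0.96, where all pairs share the differences between the groups, the library and the scaling. After the group means were removed, r between pairs was -0.42 to 0.78, the highest being OsRR9 with OsRR10, followed by OsRR3 with OsRR4 at 0.75.

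Among 17616 genes of at least 5 CPM on average, the pattern most like OsRR4 over the 18 libraries was that of LOC_Os02g43870 (r of 0.97), and that most like OsRR6 was LOC_Os04g46530 (r of 0.95). The pattern of OsRR9 had OsRR10 as the second nearest gene, at r of 0.96. The files give no names to the first 2, and these values describe the same libraries and their shared treatment.

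The lines were next compared under mock. None of the 8 genes was called in oscoi1ab against WT plants, where 0.162% of all genes were. None reached an unadjusted p under 0.05, where 1369 of the 30907 genes tested did. Aside from OsRR7, the log2FC of the members ran from -0.25 for OsRR1 to 0.34 for OsRR3. The 95% interval for OsRR4 was -0.50 to 0.15 and for OsRR2 -0.21 to 0.26.

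In oscoi2 against WT plants under mock, the median of the 8 was 0.35 and again none was called, where 0.375% of all genes were. The unadjusted p was under 0.05 for 3 of them, and for 7020 of the 30907 genes tested. OsRR6 had a log2FC of 0.57 ± 0.15 (SE, FDR 0.0385), OsRR4 of 0.47 ± 0.15 (FDR 0.0767) and OsRR2 of 0.28 ± 0.11 (FDR 0.137) by edgeR's quasi-likelihood test. OsRR4 and OsRR6 had all 3 oscoi2 libraries above all 3 WT libraries, as had 14.6% of all genes. In these comparisons under mock, neither the likelihood ratio test nor DESeq2 called a member.

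After JA, none of the 8 was called in oscoi1ab against WT plants, where 0.162% of all genes were. An unadjusted p under 0.05 was found for 1731 of the 30907 genes tested and for 3 members. These were OsRR6 (log2FC -0.82 ± 0.16, SE, FDR 0.0298), OsRR4 (-0.55 ± 0.15, FDR 0.282) and OsRR2 (-0.31 ± 0.11, FDR 0.584). The same 3 had all oscoi1ab libraries below all WT libraries, as had 4.24% of all genes. OsRR1, OsRR3, OsRR9 and OsRR10 had log2FC between -0.31 and 0.54, with an interval of -0.60 to 0.64 for OsRR3.

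After JA in oscoi2 against WT plants, 0 of 8 were called by edgeR's quasi-likelihood test, its likelihood ratio test or DESeq2, where the first called 3.92% of all genes. OsRR10 had a log2FC of 0.91 ± 0.22 (SE, FDR 0.00889), under the fold limit, OsRR1 of 1.22 ± 0.39 (FDR 0.0427), over the FDR limit, and OsRR4 of 0.44 ± 0.15 (FDR 0.0616). These 3 were the members with an unadjusted p under 0.05, which 9013 of the 30907 genes tested also had. OsRR1, OsRR2, OsRR4 and OsRR10 had all oscoi2 libraries above all WT libraries, as had 16.1% of all genes. For OsRR6 the difference was 0.09 (95% interval -0.24 to 0.41), with the oscoi2 and WT libraries overlapping.

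Whether a gene's JA response itself differed between lines was taken from the interaction contrasts. Between oscoi1ab and WT plants, none of the 8 was called and neither was any other gene (0.0%). OsRR6 came nearest, at rank 15 of 30907 genes by p. Its difference was -0.96 on the log2 scale (SE 0.22, 95% interval -1.42 to -0.50, unadjusted p 0.000429), toward a stronger response in oscoi1ab plants, but the FDR by edgeR's quasi-likelihood test was 0.884. OsRR2 was the other member with an unadjusted p under 0.05 (-0.34, FDR 1.00), and 903 genes in all were under it. Neither the likelihood ratio test nor DESeq2 called a member here.

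Between oscoi2 and WT plants, 2.94% of all genes were called for a different JA response, and none of the 8. An unadjusted p under 0.05 was found for 7173 of the 30907 genes tested and for 2 members. They were OsRR10, with a difference of 0.74 (SE 0.30, FDR 0.143), toward a weaker response in oscoi2 plants, and OsRR6, with -0.48 (SE 0.22, FDR 0.190), toward a stronger one. The interval for OsRR4 was -0.48 to 0.43 and for OsRR2 -0.41 to 0.25, while that for OsRR3 was -0.91 to 0.83 and that for OsRR1 reached further on the positive side (-0.33 to 1.93). Between oscoi2 and oscoi1ab plants, 3.37% of all genes were called and again none of the 8. OsRR10 had a difference of 0.78 (SE 0.30, FDR 0.117) and OsRR6 of 0.48 (SE 0.22, FDR 0.193), both toward a weaker response in oscoi2 plants. No other member had an unadjusted p under 0.05, which 7331 of the 30907 genes tested had. The likelihood ratio test and DESeq2 called no member in either contrast.

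The 5 members called lower in WT plants were set beside the other genes called lower there. Of the 2029 genes called lower in WT plants, 1669 (82.3%, or 66.3% of the 2518 called lower in oscoi1ab) were also called lower in oscoi1ab, and 312 (15.4%, or 68.7% of the 454 called lower in oscoi2) in oscoi2 plants. Of the 5 members among them, 5 were in oscoi1ab and 3 in oscoi2 plants. The median log2FC of the 2029 genes was -1.71 in oscoi1ab, -0.68 in oscoi2 and -1.64 in WT plants, and that of the 5 members -1.58, -1.22 and -1.26 in the same order. In the interaction of oscoi2 with WT plants, the 2029 genes had a median of 1.05 and 16.0% were called, against 0.23 for the 5 members, of which none was called. The 2029 genes and the 5 members were both picked by their WT libraries, which the interaction also uses, and the difference between the members and the other genes was not tested.

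**Figure D3:**
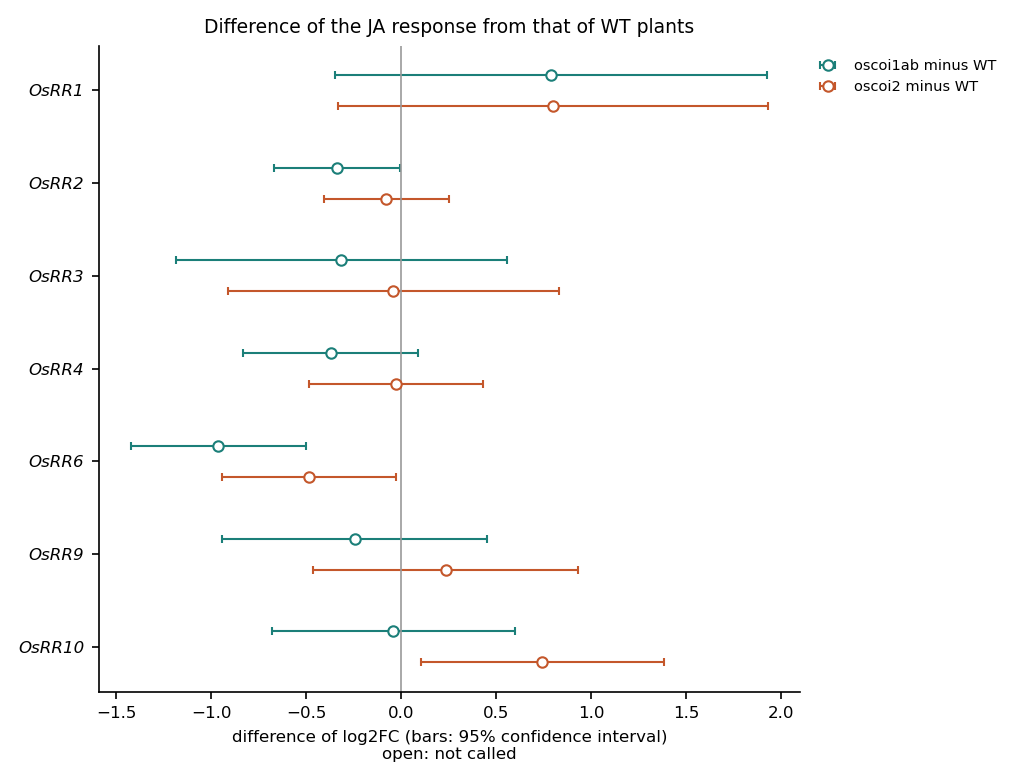
Difference of the JA response from that of WT plants (horizontal axis, log2 scale, bars of the 95% confidence interval) for 7 type-A genes, oscoi1ab above oscoi2 within each gene. The oscoi2 estimates run from -0.48 to 0.80. The oscoi1ab intervals of OsRR2 and OsRR6 and the oscoi2 interval of OsRR6 lie wholly below 0, and the oscoi2 interval of OsRR10 lies above it. None of these differences was called.

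None of the genes of checked name in the steps above the type-A genes was called. Of the receptor genes OsHK3, OsHK4 and OsHK5, none was called in any of the 10 comparisons. OsHK3 had a log2FC after JA of 0.63 (FDR 0.0129) in oscoi1ab, 0.86 (FDR 0.00415) in oscoi2 and 0.75 (FDR 0.00422) in WT plants by edgeR's quasi-likelihood test, and OsHK5 of 0.66 (FDR 0.000518), 0.41 (FDR 0.0346) and 0.51 (FDR 0.00408) in the same order, all toward higher levels. The phosphotransfer gene OsHP1 was between -0.14 and 0.17 in the 3 lines. A further phosphotransfer identifier, whose name is in none of the tables used, had a log2FC after JA of 0.85 in oscoi1ab, 0.26 in oscoi2 and 0.83 in WT plants. A further receptor identifier of unchecked name had -0.04, -0.39 and -0.24 in the same order. Neither was called after JA in any line.

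Of 6 type-B genes, which encode the transcription factors of the relay, OsRR21, OsRR22, OsRR23 and OsRR24 were expressed and tested, and none was called in any comparison. Their log2FC after JA ran from -0.51 to 0.47 in oscoi1ab, -0.30 to 0.47 in oscoi2 and -0.43 to 0.48 in WT plants. A further identifier listed as a type-B gene, whose name is in none of the tables used, had a log2FC after JA of -0.87 in oscoi1ab plants (FDR 0.000242), of -0.02 in oscoi2 plants (FDR 0.957) and of -1.0 in WT plants (FDR 7.64e-05), where it was called lower. The type-A genes OsRR5, OsRR11 and OsRR13, had no counts in any library.

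LOG and CKX genes, for the activation and the breakdown of cytokinin, were called in both directions. LOG and the LOGL genes encode enzymes that release the active base. Of 10 tested, 2 were called higher and 2 lower after JA in oscoi1ab, 1 higher and 0 lower in oscoi2, and 4 higher and 2 lower in WT plants. Of all genes, 7.48% were called higher after JA in oscoi1ab, 2.99% in oscoi2 and 7.48% in WT plants, beside the shares called lower given above. LOGL3 rose in all lines, to 13.4 to 15.4 CPM after JA against 1.39 to 1.53 CPM under mock in oscoi1ab plants, 1.35 to 2.57 CPM against 0.0639 to 0.537 CPM in oscoi2 plants, and 16.5 to 20.2 CPM against 0.814 to 2.31 CPM in WT plants. Its log2FC was 3.30, 2.81 and 3.47 in the same order (FDR 3.85e-05, 0.000946 and 2.77e-05), and it was lower in oscoi2 than in WT plants under mock (-2.64, FDR 0.00810) and after JA (-3.30, FDR 0.000221).

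LOGL9 had 13.7 to 17.9 CPM after JA against 0.379 to 1.55 CPM under mock in oscoi1ab plants, 0.655 to 1.40 CPM against 0.174 to 0.984 CPM in oscoi2 plants, and 13.5 to 18.1 CPM against 0.212 to 0.958 CPM in WT plants. Its treated and mock libraries overlapped in oscoi2 plants only. The log2FC was 3.87 (FDR 0.000149) in oscoi1ab, 0.74 (FDR 0.453) in oscoi2 and 5.08 (FDR 2.29e-05) in WT plants, and the interaction of oscoi2 with WT plants was called at -4.34 (SE 0.87, FDR 0.00486). LOG was called higher in WT plants (1.60, FDR 0.00122), and after JA LOGL1 was lower in oscoi2 than in WT plants (-1.03, FDR 0.00436), as was LOGL9 (-3.87, FDR 0.000707). LOGL6 fell in oscoi1ab (-1.73, FDR 0.000134) and WT plants (-1.53, FDR 0.000407). LOGL4 was at 0 in all treated libraries of oscoi1ab and WT plants and was called lower in both (FDR 0.00204 and 0.00159), at least 4.08-fold and 5.67-fold lower against the floor.

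CKX genes encode the oxidases that break cytokinin down. Of 6 tested, 1 was called lower in oscoi1ab, none in oscoi2, and 1 higher and 1 lower in WT plants, where 8.15%, 1.47% and 6.56% of all genes were called lower and 7.48%, 2.99% and 7.48% higher in oscoi1ab, oscoi2 and WT plants. OsCKX3 had 2.84 to 3.36 CPM after JA against 11.3 to 15.5 CPM under mock in oscoi1ab plants, 6.26 to 7.30 CPM against 12.4 to 14.4 CPM in oscoi2 plants, and 3.09 to 3.95 CPM against 10.5 to 12.6 CPM in WT plants. Its log2FC was -2.08 (FDR 3.65e-08) in oscoi1ab, -0.96 (FDR 0.000366) in oscoi2 and -1.70 (FDR 3.62e-07) in WT plants, and its responses in oscoi2 and oscoi1ab plants differed by 1.12 (SE 0.21, FDR 0.00289). OsCKX1 was called higher in WT plants (1.63, FDR 0.00383).

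The list also held 10 identifiers entered as cytokinin synthesis genes, whose names are in none of the tables used and which are therefore given by count alone. Of 7 tested, 4 were called lower after JA in oscoi1ab, 0 in oscoi2 and 3 in WT plants, and none higher. Their median log2FC was -1.62, -0.57 and -1.35 in the same order of lines, against -0.03, -0.01 and -0.05 over all genes. Of the further identifiers of unchecked name in the activation and breakdown classes, 1 and 2 were tested and none was called after JA.

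**Figure D4:**
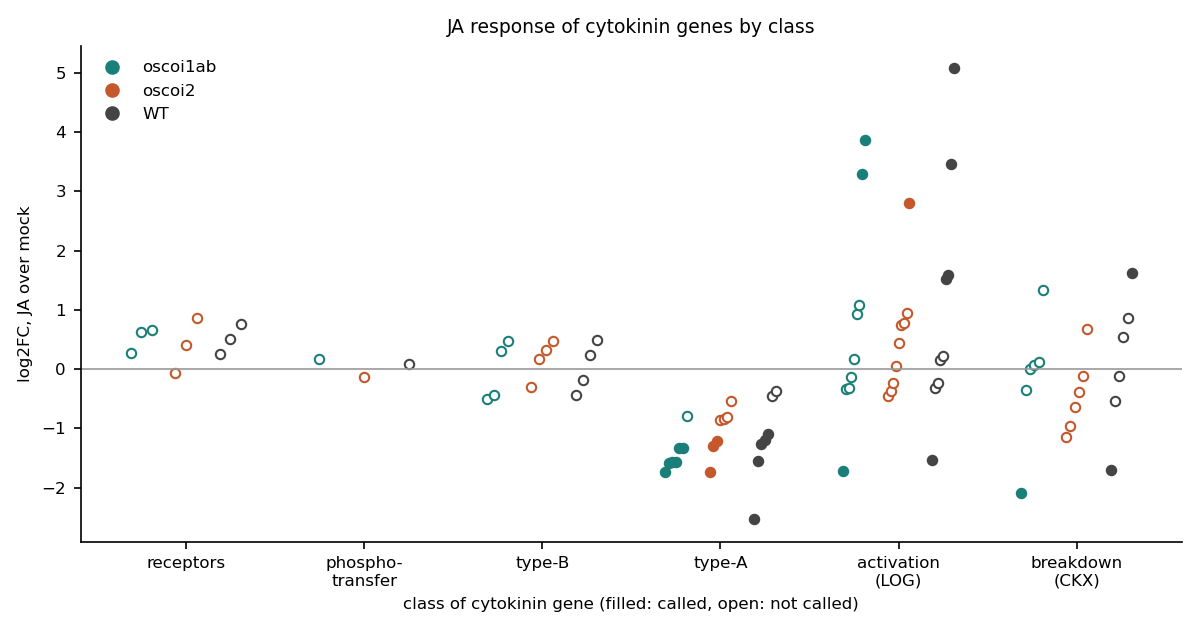
Log2FC of JA over mock (vertical axis) for the named and tested cytokinin genes of each class, 1 point per gene, with oscoi1ab, oscoi2 and WT plants from left to right within a class, filled where called and open where not. The 7 type-A points lie below 0 in every line and the receptor points between -0.07 and 0.86, while the LOG genes spread furthest, up to 5.08 for LOGL9 in WT plants. OsRR7 and LOGL4, at or near 0 after JA, are left out.

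WOX11, the crown root factor named above as a repressor of OsRR2, rose in all lines. It had 13.3, 14.5 and 18.6 CPM after JA in oscoi1ab plants, against 0.639, 1.26 and 1.01 CPM under mock. The oscoi2 libraries held 3.25, 2.48 and 1.82 CPM after JA and 0.694, 0.673 and 0.801 CPM under mock, and in WT plants 13.2, 18.6 and 24.0 CPM after JA and 0.354, 1.01 and 0.816 CPM under mock. The treated oscoi2 libraries lay well below those of the other lines. The log2FC was 4.0 (FDR 3.78e-07) in oscoi1ab, 1.80 (FDR 0.00193) in oscoi2 and 4.68 (FDR 1.15e-07) in WT plants, and its response in oscoi2 plants differed from that in WT plants by -2.88 (SE 0.48, FDR 0.00157). For OsRR2 the same difference was -0.08, with a 95% interval of -0.41 to 0.25. Whether WOX11 acts on OsRR2 in these tips was not tested.

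Sums over gene lists taken as tissue markers were also mostly lower after JA. Over 7 root meristem and cell cycle genes (QHB, OsSCR1, OsSHR1, OsCYCB1;1, OsCYCB2;2, OsCDKB2;1 and PCNA), the sum was 121 to 147 CPM after JA against 194 to 232 CPM under mock in oscoi1ab plants, 180 to 237 CPM against 246 to 282 CPM in oscoi2 plants, and 129 to 164 CPM against 219 to 235 CPM in WT plants. Of these 7 genes, only PCNA in oscoi1ab plants was called lower (log2FC -1.08, FDR 5.22e-05), and QHB, SCR1 and SHR1 had log2FC between -0.41 and -0.03. The root hair genes OsEXPA17 and OsRHL1 summed to 1.97 to 2.42 CPM after JA against 11.9 to 15.2 CPM under mock in oscoi1ab plants, 3.91 to 6.95 CPM against 22.4 to 32.1 CPM in oscoi2 plants, and 2.77 to 17.8 CPM against 13.7 to 23.3 CPM in WT plants, where the groups overlapped. A leaf list of 2 genes, a Rubisco small subunit gene and OsLhcb1a, summed to 0.518 to 2.27 CPM after JA against 77.9 to 235 CPM under mock in oscoi1ab plants, 2.07 to 8.87 CPM against 14.6 to 60.7 CPM in oscoi2 plants, and 0.123 to 1.25 CPM against 43.1 to 184 CPM in WT plants. Nearly all of it was OsLhcb1a, at 118 CPM on average in WT mock libraries against 0.0915 CPM for the Rubisco gene. Of 2 further leaf identifiers of unchecked name, left out of the sum, 1 was called lower after JA in oscoi1ab, 0 in oscoi2 and 1 in WT plants. Their log2FC ran from -3.41 to -1.86, -2.145 to -1.264 and -2.46 to 3.75 in the same order, the highest for a gene near 0 CPM. Of the 2 genes in the sum, 1 was called lower after JA in oscoi1ab, 0 in oscoi2 and 1 in WT plants. The paper lists OsLhcb genes among the photosynthesis genes that JA repressed in WT root tips. It reports nearly all of those genes as repressed in oscoi1ab plants too, and hardly any in oscoi2 plants. What the leaf list marks in these tips was not tested. No list summed to 0 in any library, and the part of these tissues in the type-A values was not tested.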

How the data were processed

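Crown root tips of 3 rice lines were measured by RNA sequencing with 150-bp paired reads, with samples grouped by their titles. The authors trimmed reads using CutAdapt, aligned them by HiSat2 to the rice genome under its MSU7 and RAP-DB annotations, ran StringTie, and derived counts by a script of their own. Tool versions are not given in the sources used here. The deposited values are estimated counts per gene, whole and not normalized, with low values near multiples of 3.63 to 3.70. Library totals had a median of 106965031. The floor of a library was 3 read pairs, or 11.0 counts (0.0866 to 0.123 CPM).

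The tests of the genes that summed to 180 counts or more ran in edgeR 4.0.16 (R 4.3.3), using TMM scaling, 1 model of 6 groups and quasi-likelihood F tests for 10 comparisons. A call needed an FDR (Benjamini-Hochberg) under 0.01 and a log2FC of 1 or more, up or down. A standard error is the size of log2FC divided by the square root of F. The code was tested on simulated data. DESeq2 1.42.0 served as an alternative, Python 3.11.15 for tables and figures.

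The members and gene lists were chosen with earlier results of these data known. All 8 members were to be named in every library and comparison, other cytokinin genes as counts per class with at most 4 called genes named per class in each comparison, and the nearest patterns by Pearson r. Of 77 listed names, 50 are RefSeq names (assembly ASM3414082v1). Genes with a name in no table, among them all cytokinin synthesis genes, are given without a name, apart from CRL5. No sequence was used.

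Replicate numbers are shared between groups. After removal of group means, libraries of equal number correlated at r of 0.34, 0.38 and 0.29 for JA against mock in WT plants, and at 0.47, 0.32 and 0.24 for mock-treated oscoi1ab against WT plants, so the numbers were taken to pair the libraries there. Elsewhere the lowest r of the 3 numbers was 0.0846 for treated oscoi1ab against WT plants. It was 0.0552 for JA against mock in oscoi1ab and 0.0913 in oscoi2 plants. In the same order, 6, 5 and 5 of 6 libraries still correlated best with the library of their own number. For oscoi2 against WT plants only 2 of 6 did, under mock and after JA alike. The fit without a block is reported and the block is an alternative.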

Additional observations from a re-analysis of the deposited data

How the results depend on the processing

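In 10 comparisons, 12 other settings and the omission of each of 18 libraries gave no reversed call among the 8 genes. The count of members called after JA ranged, without 1 library, from 5 to 7 in oscoi1ab plants, from 1 to 3 in oscoi2 plants (1 without JA replicate 1 or 2 or mock replicate 1) and from 3 to 5 in WT plants (3 without JA replicate 3 or mock replicate 1). In oscoi2 plants it was 5 without a log2FC minimum and 5 with library size only. In oscoi2 against WT plants after JA it was 1 at an FDR under 0.05 (OsRR1), 1 without a log2FC minimum (OsRR10) and 1 with library size only (OsRR10).

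Scaling by library size only moved the median log2FC of all genes to -0.39 in oscoi1ab, -0.16 in oscoi2 and -0.39 in WT plants after JA, and the members' median to -1.93, -1.19 and -1.57. The calls were then 1601 higher and 4446 lower in oscoi1ab (reported: 2311 and 2518), 732 and 753 in oscoi2 (reported: 924 and 454) and 1616 and 3955 in WT plants (reported: 2313 and 2029).

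With the replicate block, the members called after JA numbered 6 for oscoi1ab, 3 for oscoi2 and 5 for WT, with 0 in the other comparisons, as without it. Over all genes the block gave 4472 calls after JA in WT plants (4342 without it) and 54 in oscoi1ab against WT plants under mock (50 without it). In oscoi2 against WT plants under mock, where the numbers do not pair the libraries, it gave 244 against 116.

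Counts over all genes moved by more than 1.5 times without a log2FC minimum after JA (8146 against 4829 in oscoi1ab, 2708 against 1378 in oscoi2 and 7650 against 4342 in WT plants). Over the 12 settings they ran from 12 to 153 (reported: 50) in oscoi1ab and from 23 to 407 (reported: 116) in oscoi2 against WT plants under mock, from 27 to 163 (reported: 50) and from 965 to 2356 (reported: 1213) after JA, and from 0 to 21 (reported: 0), 692 to 1619 (reported: 908) and 909 to 1835 (reported: 1042) in the 3 interactions. Without 1 library, some counts over all genes also moved by more than 1.5 times. After JA in oscoi2 plants the count was 917 without JA replicate 2. In oscoi2 against WT plants under mock it was 47 to 256, over the omissions of each of the 6 mock libraries. In oscoi1ab against WT plants under mock it was 31 to 33, without WT mock replicate 1 or 2 or oscoi1ab mock replicate 3. In oscoi2 against WT plants after JA it was 732 without WT JA replicate 3. In the interaction of oscoi1ab with WT plants it was 1 rather than 0, without WT JA replicate 2 or oscoi1ab mock replicate 2 or 3. In that of oscoi2 with WT plants it was as low as 585, over the omissions of WT JA replicate 3, oscoi2 JA replicate 2 or mock replicate 3. OsRR7 is the member with the fewest counts, 407 over the 18 libraries.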
